A study of Mus musculus with 6 samples.

Results

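Protein kinases transfer phosphate from ATP to proteins and carry signals from receptors at the cell surface to the nucleus. Receptor tyrosine kinases bind growth factors directly, other tyrosine kinases work beside receptors that lack an enzyme of their own, and serine/threonine kinases run most of the steps below them. The type I receptors of the TGF-beta superfamily are serine/threonine kinases, and in the embryonic heart the BMP and Nodal branches of this pathway take part in chamber, valve and left-right development. The genes described here were the protein-coding rows of the deposited table that carry the GO term for protein kinase activity and none of 12 terms for heart and blood vessel development, actin binding, muscle contraction and sarcomere structure, transcription factor activity, ion transport, adhesion and matrix. This rule gave 29 of the 1492 protein-coding genes, among 1577 genes in all, and left out 2 kinase genes for an excluded term. By their GO terms, 3 were receptor tyrosine kinases, 5 were other tyrosine kinases, 18 were serine/threonine kinases, 2 of them type I receptors, and 3 (Pdk3, Mlkl and Tex14) carried none of these class terms.

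Whole hearts were taken at E11.5 from 3 hypomorphic embryos, in which expression of the cardiac homeobox factor NKX2-5 is reduced but not lost, and from 3 control embryos of the same line, labelled WT and described as littermates. All were C57BL/6. The methods name the line Nkx2-5-gfp and also the line Nkx2-5-IRES-Cre, but the alleles that each heart carried are not stated. The study chose this stage because the mutant hearts looked like those of controls.

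Each gene in the table has 1 mean of estimated raw reads and 1 normalized log2 value for each group, with no value for a single heart. No spread between hearts, no error and no test between the groups could therefore be given here, and depth per heart is unknown. The table holds only genes that passed the authors' AC test at a fold of at least 1.5, so every kinase below was chosen for a difference, and kinases that did not pass are not seen. On the log2 scale the normalized difference exceeded the log2 ratio of raw means by a median of 0.47 over the protein-coding genes, a factor of 1.38 in favor of the hypomorphic hearts. Both are given below. The interval beside a raw ratio is an exact 95% interval (Clopper-Pearson) of the summed reads of 3 hearts, which covers counting error only. Nkx2-5 itself is not among the genes listed, so the label of the hypomorphic hearts was not checked by it. The heart muscle genes Nppa and Myl7, 2 of 10 cardiomyocyte markers found in the table, had 178388 and 176094 mean raw reads in control hearts and 80838 and 199161 in hypomorphic ones, so the tissue label had these heart markers behind it. In whole-heart RNA, fewer cells of a type and less RNA per cell cannot be told apart.

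In hypomorphic hearts 19 of the 29 kinase genes (65.5%) were lower and 10 (34.5%) higher, beside 58.0% and 42.0% of all protein-coding genes of the table. The median normalized log2 difference was -0.63 for the kinases and -0.63 for all protein-coding genes. A difference of at least 2-fold on the normalized scale was seen for 6 kinases that were lower, or 20.7% beside 17.9% of all genes listed, and for 1 that was higher, or 3.45% beside 14.6%. The kinases thus lay close to the table as a whole in median, and few of them were higher by a large fold.

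The raw reads were set beside the normalized values. The near ends of the raw ranges below were largely fixed in advance, by the fold limit of the table and the factor of 1.38 between the groups. All 19 lower kinases had raw ratios of hypomorph to control between 0.229 and 0.495. Lower by at least 1.5-fold on raw reads were 58.1% of all protein-coding genes listed, and by at least 2-fold 56.9%. The 10 higher kinases had raw ratios between 1.09 and 1.85. Of these, 1, Mak, passed 1.5-fold on raw reads, and 11.1% of all genes listed did so as higher. The other 9 were listed as higher by way of the factor between the groups.

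**Figure D1:**
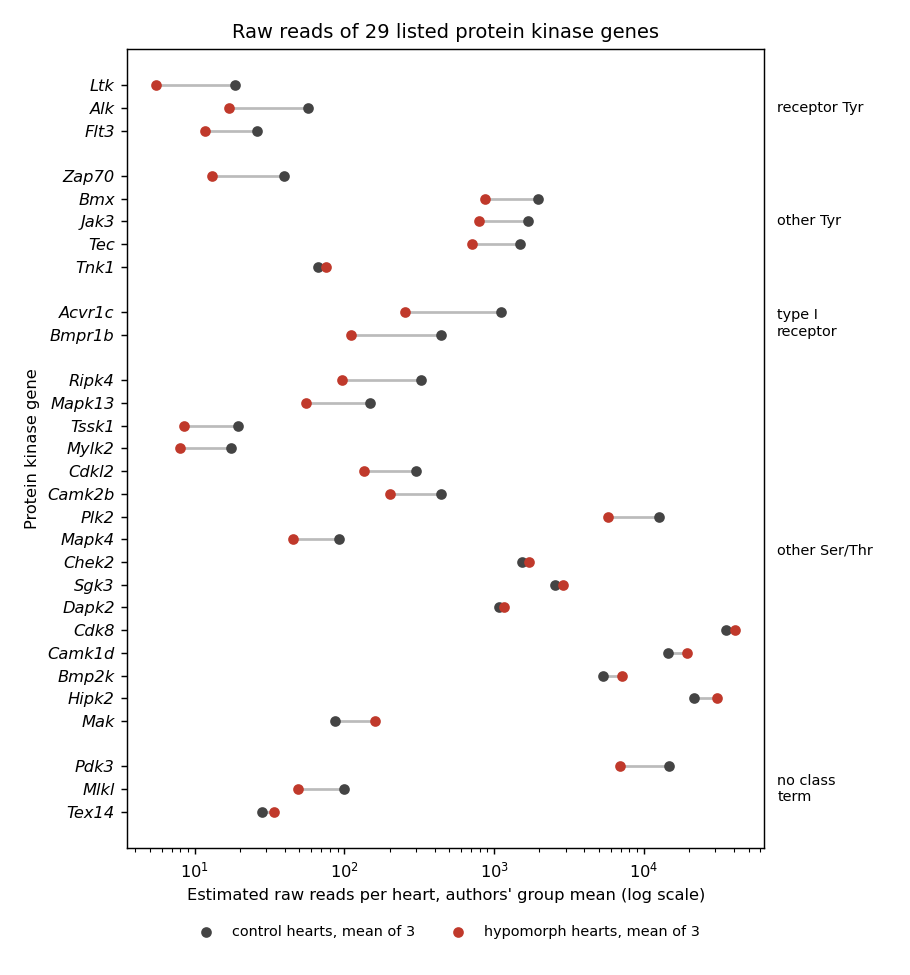
Authors' mean estimated raw reads per heart (log axis) for each of the 29 kinase genes, by class, in 3 control (grey) and 3 hypomorphic hearts (red). The line joins the group means of a gene, and the 19 lower kinases show wide gaps while most of the 10 higher ones show short gaps at high read numbers.

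Both type I receptors of the TGF-beta superfamily were lower, and theirs were the largest differences of all 29 kinases on both scales. Acvr1c encodes ALK7, a receptor for Nodal and activin-type ligands, and lies on the minus strand of chromosome 2 from 58119864 to 58210306 in mm9. It had a mean of 1109.6 raw reads in control hearts and 254 in hypomorphic hearts, a raw ratio of 0.229 (interval 0.212 to 0.248) and a normalized log2 difference of -1.62. Bmpr1b encodes ALK6, a receptor for BMP and GDF ligands, on the minus strand of chromosome 3 from 141500100 to 141832389. Its reads were 445 and 111, a raw ratio of 0.250 (interval 0.221 to 0.282) and a normalized log2 difference of -1.52. These are also the most read of the 7 kinases past 2-fold on the normalized scale.

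Other genes of this pathway were taken from a list of 69 symbols of ligands, receptors, antagonists, SMADs and targets, of which 8 were listed in the table, 2 lower and 6 higher (median normalized log2 difference 0.95, beside -0.63 over all protein-coding genes). Among the ligands, Bmp3 went from 60.7 to 13.4 raw reads (normalized log2 difference -1.56) and Mstn, which encodes myostatin, from 743 to 240.3 (-1.15), while Gdf10 was higher at 0.59. The other 5 belong to Nodal signaling and all were higher on the normalized scale. Tdgf1 and Cfc1 encode Cripto and Cryptic, co-receptors in Nodal signaling. Their normalized log2 differences were 2.31 and 2.25, with raw reads of 7.33 and 30.0 for Tdgf1 and 26.6 and 87.7 for Cfc1. Foxh1, the DNA-binding partner of activated SMADs in Nodal signaling, went from 35.9 to 125 raw reads (2.16). The Nodal antagonists Lefty2 and Lefty1 stood at 1.10 and 0.79, and Lefty1 turned to -0.051 when raw means were scaled to the total of the protein-coding genes. The co-receptor, cofactor and antagonist genes of Nodal signaling were thus listed as higher where the type I receptor gene Acvr1c was lower. A further type I receptor gene, Acvrl1, was in the table at -0.61 but was left out by the rule for an excluded term, and the other type I receptor genes of the list were not found in it.

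**Figure D2:**
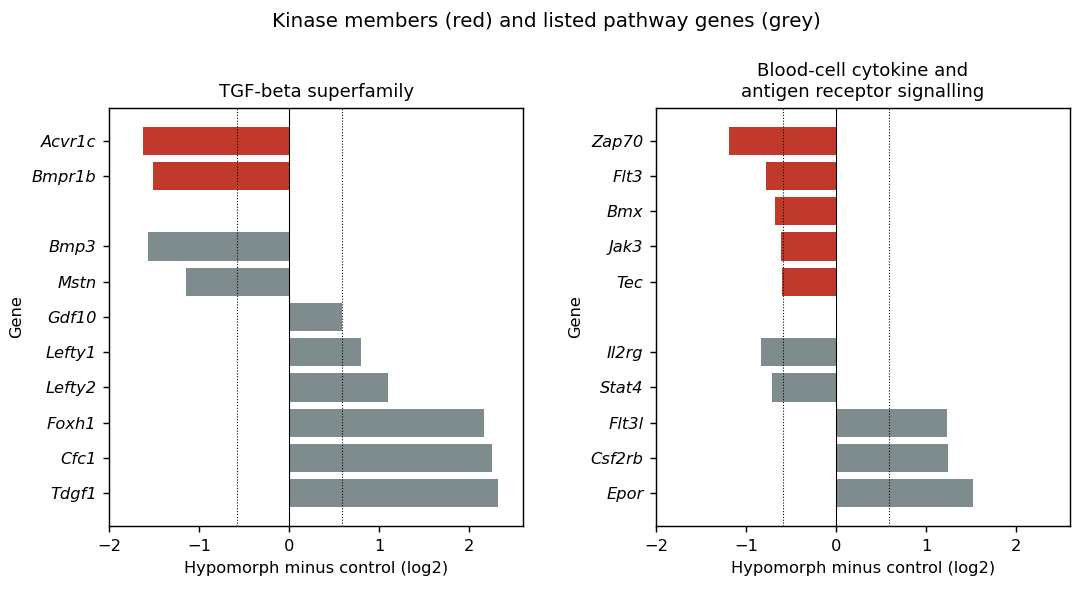
Normalized log2 differences, hypomorph minus control, of kinase genes (red) and of the genes of 2 pathway lists found in the table (grey); dotted lines mark 1.5-fold. Acvr1c and Bmpr1b point down at -1.62 and -1.52 while Tdgf1, Cfc1 and Foxh1 stand above 2. At right the 5 kinases drawn, all picked from the members, point down. The blood-cell kinase genes Blk (1.0) and Fgr (0.80), outside the rule and higher, are not drawn.

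All 3 receptor tyrosine kinases among the members were lower, and all 3 rested on few reads. Outside the rule, the ephrin receptor kinase genes Ephb2 (0.81) and Epha5 (-0.74) went opposite ways. Alk, known from the developing nervous system, had 56.8 raw reads in control hearts and 16.9 in hypomorphic hearts, a raw ratio of 0.298 (interval 0.215 to 0.412). Ltk, its closest relative, had 18.5 and 5.54 reads, a raw ratio of 0.300 with a wide interval of 0.168 to 0.541. The normalized log2 differences of both were -1.27. In mm9 Alk lies on chromosome 17 from 72218782 to 72953049 and Ltk on chromosome 2 from 119577056 to 119586167, both on the minus strand. Of 8 marker symbols of neurons and neural crest, 3 were listed, with Elavl3 lower (-0.81) and Sox10 (0.62) and Th (1.31) higher, so these markers did not move one way. Their part in the values of Alk and Ltk was not tested.

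Flt3, the receptor that holds early blood progenitors in growth and survival, had 26.0 raw reads in control hearts and 11.7 in hypomorphic hearts, a raw ratio of 0.449 (interval 0.292 to 0.677) and a normalized log2 difference of -0.78. Both of its normalized group values lay above the gene's baseline, at 0.93 in control hearts and 0.15 in hypomorphic hearts. Both values on the same side of the baseline, above or below, were seen for 2 of the 29 kinases, or 6.90%, beside 6.43% of all genes listed. These 2 were Flt3 and Tex14, both with values above it. How the baseline was set is not given in the sources used here.

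Of the 5 other tyrosine kinases, 4 were lower. Bmx, a Tec-family kinase found in endothelial and myeloid cells, had 1948 raw reads in control hearts and 874 in hypomorphic hearts (normalized log2 difference -0.68). Its relative Tec had 1495 and 708 reads (-0.60). Jak3, the kinase bound to the common cytokine receptor chain, had 1674 and 791 (-0.62). These 3 had raw ratios of 0.449, 0.473 and 0.473, with intervals that together ran from 0.428 to 0.498, so that counting error is small for them. Zap70, which relays the T-cell receptor signal, had the largest difference of the class, -1.19, on 39.3 and 13 raw reads (raw ratio 0.331, interval 0.224 to 0.478). Of the tyrosine kinase genes outside the rule, Blk (1.0), Fgr (0.80) and Ephb2 (0.81) were higher and Epha5 (-0.74) lower. Among the members, Tnk1, an Ack-family kinase, was the one tyrosine kinase listed as higher, with 66.5 and 75.8 raw reads. Its raw ratio of 1.14 had an interval of 0.934 to 1.38 that includes 1, its normalized log2 difference was 0.71, and 35.3% of its exonic bases overlap exons of Plscr3 in the annotation.

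The kinases of blood cells were set beside a list of 52 symbols of cytokine and antigen receptor signaling, of which 5 were listed, 2 lower and 3 higher (median 1.23). Il2rg, the cytokine receptor chain that JAK3 binds, had 691 raw reads in control hearts and 282 in hypomorphic hearts (normalized log2 difference -0.84), and Stat4 had 250.3 and 112 (-0.71). Jak3 and its receptor chain were thus both listed as lower. Flt3l, the ligand of FLT3, was higher at 1.23, with 278 and 446 raw reads, opposite to its receptor. The receptor genes Epor (1.52) and Csf2rb (1.25) were also higher. Flt3l, Epor and Csf2rb were also above 1.5-fold on raw reads.

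Markers of blood cells moved with the groups. Of 10 macrophage markers, 4 were listed and all 4 were lower, with summed means of 5284 raw reads in control hearts and 825 in hypomorphic hearts and raw ratios from 0.0603 to 0.481. Of 10 erythroid markers, 8 were listed and all 8 were higher, with raw ratios from 1.28 to 2.02; scaling to the total of the protein-coding genes turned Alas2 to slightly below 0, at -0.0068. None of the 9 lymphoid, 7 endothelial and 5 epicardial markers was listed, so no T-cell marker stood beside Zap70 and no endothelial marker beside Bmx. The part of these cells in the values of Flt3, Zap70, Jak3, Tec and Bmx was not tested.

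Among the 16 serine/threonine kinases that are not receptors, 8 were lower and 8 higher. Of the lower ones, Ripk4, which is needed for differentiation of the epidermis, had the largest difference, from 327 to 96.3 raw reads (raw ratio 0.295, interval 0.257 to 0.336, normalized log2 difference -1.30). Both MAP kinases among the members were lower. Mapk13, the p38-delta kinase, had 147 and 55.1 raw reads (-0.93) and Mapk4, the atypical kinase ERK4, 92.3 and 45.3 (-0.60). Of 49 other symbols of the MAP kinase cascades, 2 were listed, the phosphatase gene Dusp2 at -0.66 and the scaffold gene Mapk8ip2 at 1.08, and no other MAP kinase gene of that list was found in the table.

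Plk2, a polo-like kinase of centriole duplication and stress responses, was the most read of the lower serine/threonine kinases, with 12642 raw reads in control hearts and 5739 in hypomorphic hearts (raw ratio 0.454, interval 0.446 to 0.462, normalized log2 difference -0.66). Camk2b, a calcium/calmodulin-dependent kinase best known from neurons, had 441 and 201 (-0.67), and Cdkl2, a kinase related to the cyclin-dependent kinases, 302 and 135 (-0.68). Both had raw intervals within 0.396 to 0.503. Mylk2, the myosin light chain kinase of skeletal muscle, had 17.6 and 8.0 raw reads (-0.80), and Tssk1, a testis-specific kinase, 19.3 and 8.5 (-0.82). The intervals of these 2 raw ratios reached 0.747 and 0.724, so that a fall of less than 1.5-fold in raw reads lies within counting error, and the same held for Flt3. For the other 16 lower kinases the interval lay wholly past 1.5-fold, but on unscaled raw reads only. The factor of 1.38 moves these ratios toward 1, and with it Mapk4 (-0.56) and Mlkl (-0.55) fell under 1.5-fold on the log2 scale.

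The 8 higher serine/threonine kinases included the most read of all. Cdk8, the kinase of the Mediator complex that links enhancers to RNA polymerase II, had 35458 raw reads in control hearts and 40885 in hypomorphic hearts. Hipk2, a nuclear kinase named for its binding to homeodomain proteins, had 21562 and 30588.5, and Camk1d, a calcium/calmodulin-dependent kinase, 14435 and 19513. Their raw ratios were 1.15, 1.42 and 1.35 and their normalized log2 differences 0.73, 1.0 and 0.94. Bmp2k, named for its induction by BMP2 and related to the endocytic kinase AAK1, had 5332 and 7196 (raw ratio 1.35, normalized 0.96), with 14% of its exonic bases overlapping Paqr3. Counting error on these is small, the widest of the 4 intervals being 1.32 to 1.38 for Bmp2k, and none of the raw ratios reached 1.5.

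Sgk3, an endosomal relative of AKT, had 2541 and 2892 raw reads (normalized log2 difference 0.66). Chek2, the checkpoint kinase of the DNA damage response, had 1530.3 and 1721 (0.63), and Dapk2, a calmodulin-regulated kinase linked to cell death, 1076 and 1169 (0.68). Raw ratios of these 3 lay between 1.09 and 1.14. Scaling to the total of the protein-coding genes in place of the authors' normalization turned all 3 to slightly lower, as it did Cdk8, Tnk1 and Tex14. With the globin genes left out of that total, all of these stayed above 0 but under 1.5-fold, with Dapk2 at 0.12 and Cdk8 at 0.21.

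Mak, a kinase of male germ cells and cilia, was the 1 kinase higher by at least 1.5-fold on both scales. It had 86.4 raw reads in control hearts and 159 in hypomorphic hearts, a raw ratio of 1.85 (interval 1.58 to 2.16) and a normalized log2 difference of 1.45, and it lies on the minus strand of chromosome 13 from 41120489 to 41175075 in mm9. Under scaling to the total of the protein-coding genes its log2 difference was 0.52, still higher but under 1.5-fold. With the globin genes left out of that total it was 0.89.

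**Figure D3:**
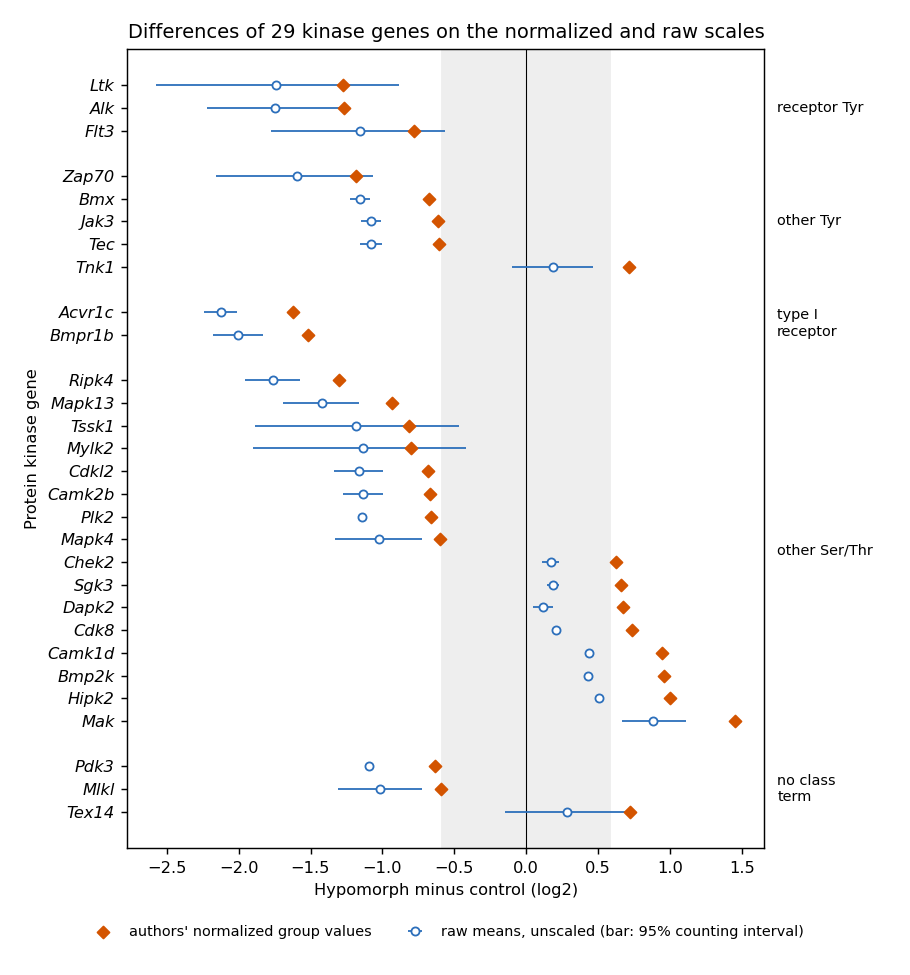
Hypomorph minus control on the log2 scale for each kinase gene, from the authors' normalized values (diamonds) and from unscaled raw means (circles, with bars for the 95% counting interval). The shaded band is a difference under 1.5-fold. All 19 lower kinases have circles to the left of the band, and of the 10 higher ones the circle of Mak alone lies to its right.

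The 3 kinases without a class term differed from one another. Pdk3, which phosphorylates pyruvate dehydrogenase in mitochondria and is not related by fold to the other kinases, had 14722 raw reads in control hearts and 6900.4 in hypomorphic hearts (raw ratio 0.469, interval 0.461 to 0.477, normalized log2 difference -0.63). Mlkl, a pseudokinase that carries out necroptosis, had 98.9 and 48.9 (-0.59) and lay nearest of all 29 to the 1.5-fold limit of the table, with a normalized fold of 1.51. Tex14, a kinase-like protein of germ-cell bridges, had 28 and 34.0 reads (0.72), with a raw interval of 0.901 to 1.64 that includes 1. In all, 10 of the 29 kinases had a normalized fold under 1.6, beside 24.4% of all protein-coding genes listed.

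Pdk3 and Bmx both lie on the X chromosome and both were lower. Xist, the RNA made from the inactive X of females, went from 16339.7 raw reads in control to 53613 in hypomorphic hearts, and so moved with the groups. Its part in these 2 values was not tested.

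Reads per kilobase of exon in the mm9 annotation put the kinases on one scale of level. In control hearts Cdk8 was highest at 9136 reads per kb, followed by Pdk3 (5749), Plk2 (4512), Hipk2 (2428) and Camk1d (1944). The same 5 were highest in hypomorphic hearts, but in another order, with Cdk8 at 10535, Hipk2 at 3444, Pdk3 at 2694, Camk1d at 2627 and Plk2 at 2048. Pdk3 and Plk2 thus stood above Hipk2 in control hearts and below it in hypomorphic ones. Pdk3 and Plk2 were listed as lower and Hipk2 as higher, so the direction of this change was set by how they were chosen. The reads per kb are unscaled. Exon lengths came from GENCODE M1 while the authors called RefSeq genes, so these levels are approximate. Whether these neighbors differ beyond the spread of hearts cannot be told. At the low end in control hearts were Flt3 (4.20), Ltk (5.14), Tex14 (5.58) and Mylk2 (5.96).

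**Figure D4:**
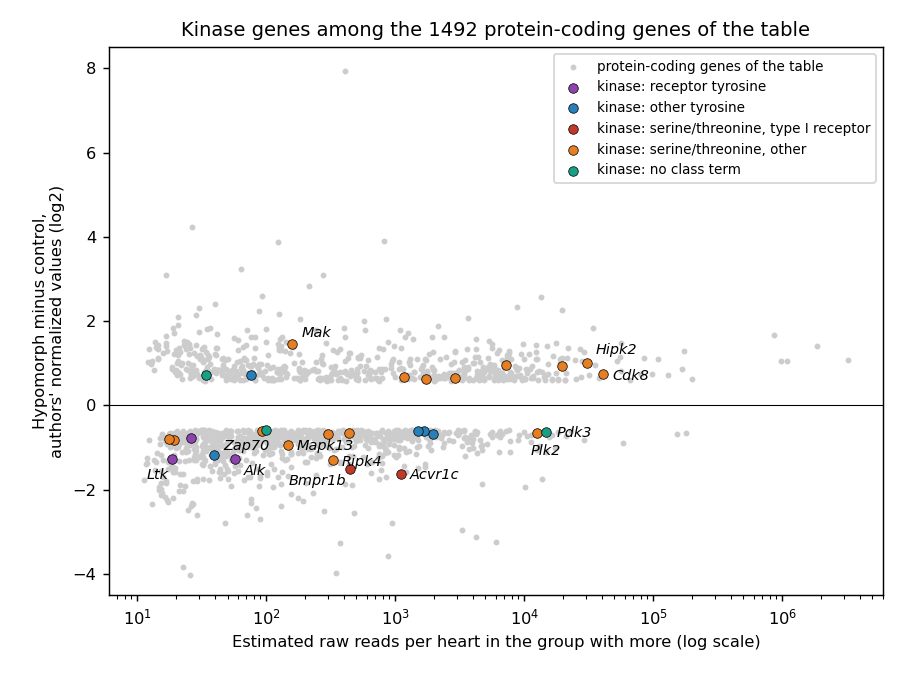
Normalized log2 difference, hypomorph minus control, against estimated raw reads per heart in the group with more (log axis) for the 1492 protein-coding genes of the table (grey) and the 29 kinases (colored by class). The 10 higher kinases reach further right, to 40885 reads for Cdk8, and the gap around 0 is the 1.5-fold limit of the table.

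Lower and higher kinases differed in how much they were read. The median of raw reads in the group with more was 302 for the 19 lower kinases and 2307 for the 10 higher ones. The same medians were 142 and 513 for all lower and higher protein-coding genes listed, so the difference ran the same way in the table as a whole. Under 100 raw reads in both groups were found for 8 of the lower and 2 of the higher kinases, and at least 1000 in the group with more for 6 and 7. These counts were not made over all genes listed, so they show no trait particular to kinases.

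Features that the rule did not use were read from the other GO terms of the table. A receptor term was carried by 8 kinases, 7 of them lower, where 67.4% of all 172 genes listed with it were lower. A nuclear term was carried by 7, of which 2 were lower (Cdkl2 and Flt3) and 5 higher (Cdk8, Hipk2, Bmp2k, Chek2 and Camk1d), where 47.8% of the 230 listed with it were lower. Calmodulin binding was carried by 4, Camk2b and Mylk2 lower and Camk1d and Dapk2 higher, where 3 of the 10 genes listed with it (30.0%) were lower. Of 34 other symbols of calcium and calmodulin signaling only Nfatc2 was listed, at -0.71. The cell cycle term was carried by 6, with 3 lower and 3 higher, where 33.3% of the 21 listed with it were lower. The receptor term was also attached to Bmx, Ripk4 and Tnk1, which are not of the receptor classes above. Its other carriers are the members of those classes, already given as lower, so that count partly repeats the class result. None of the counts by GO term was tested.

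The promoters of the kinases were searched for the core of the NKX2-5 site, because the hypomorphic group is defined by reduced NKX2-5. The groups also differed in Xist and in markers of blood cells, as given above. RefSeq promoters in build GRCm38.p6, from 250 bases before to 50 after the transcription start, were found for 25 kinases, all but Mapk4, Mylk2, Ripk4 and Sgk3. The letters TNAAGTG, on either strand, were in the promoters of 2 of the 25 kinases (8.0%) and of 13.1% of all 27025 genes in the table of promoters. Both are higher kinases, 2 of 9 against 0 of 16 lower ones, and the match is shown in capitals within its flanking bases. For Dapk2 it lies 217 to 211 bases before the start, in chr9:66157999-66158025 on the plus strand, and for Mak 173 to 167 bases before the start, in chr13:41079863-41079889 on the minus strand.
Dapk2: tgctgggttgTGAAGTGcgttgatcat
Mak: ttgcacagctTCAAGTGgacacttata
No match says only that these letters are not in this window, and the share with a match was not above that of all genes.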

How the data were processed

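The authors sequenced RNA of 3 control and 3 hypomorphic hearts (E11.5, Illumina Genome Analyzer IIx), aligned reads to mm9 with TopHat and called RefSeq genes in Avadis NGS with the AC test, keeping changes of 1.5-fold or more. The submitters' processing notes also name CASAVA 1.4. The deposited raw values are estimated counts, as the authors' mean of a group. The deposited normalized values are log2 group means against a baseline per gene, made by a method not given in the sources used here. The deposited log2 fold change, absolute fold change (a ratio) and signed fold change (a score) hold the authors' own comparison and were not used. Depth per heart is unknown.

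Differences are the normalized hypomorph value minus the normalized control value. Intervals of raw ratios are exact binomial ones on 3 times the group means, rounded, and reads are not independent molecules. No test was run. All 29 kinases are named. Spans and exonic lengths came from GENCODE M1 (mm9), which placed all 29, and promoters from RefSeq. Counting is not stated to use strand, and 5 kinases overlap exons of another gene, with 12.9% of exonic bases for Jak3, 4.76% for Mapk4 and 1.81% for Acvr1c besides those given for Tnk1 and Bmp2k. Protein sequences were not used here, so catalytic motifs were not analysed. The members, gene lists and alternatives were chosen with earlier results of these data known. The calculations were tested on simulated data. Tools were Python (3.11.15) with scipy (1.17.1), pandas (2.3.3), numpy (2.4.6) and matplotlib (3.10.9).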

Additional observations from a re-analysis of the deposited data

How the results depend on the processing

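The number of lower kinases was 19 as deposited, without scaling and under scaling to the total of the protein-coding genes, with or without the 6 globin genes. Without scaling and with either total, each kinase sits lower than as deposited, so these settings could not reduce the number. The number of lower kinases was 17 with the median factor, 14 with at least 50 raw reads, 20 with the 2 kinases that carry an excluded term and 6 at a fold of at least 2. The number of higher kinases, 10 as deposited, was 1 without scaling, 0 with the total, 1 with the total without globin genes and 1 at a fold of at least 2. It was 10 with the median factor, 9 with at least 50 raw reads and 11 with the 2 kinases that carry an excluded term. The median log2 difference, -0.63 as deposited, was -1.09 without scaling, -1.46 with the total, -1.09 with the total without globin genes, -0.63 with the median factor, -0.60 with at least 50 raw reads, -1.27 at a fold of at least 2 and -0.62 with the 2 further kinases. Against the deposited values these scalings shift the median gene by -0.47, -0.83, -0.47 and 0 on the log2 scale. No scaling can bring in a kinase that the table does not hold.

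Scaling to the total reversed 6 higher kinases, Cdk8 (-0.16), Chek2 (-0.20), Dapk2 (-0.25), Sgk3 (-0.18), Tex14 (-0.084) and Tnk1 (-0.18). That total holds only the genes listed, globin genes among them. Without the globin genes these 6 stayed above 0, from 0.12 for Dapk2 to 0.28 for Tex14, all under 1.5-fold. Of 116 values of single kinases under the 4 scalings, 86 stayed past 1.5-fold in the same direction and 24 fell under it, among them Mapk4 (-0.56) and Mlkl (-0.55) with the median factor. Which factor is right was not tested. No paired analysis was possible because only group means were given, with no value per heart, and for the same reason no heart could be left out.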

Other observations

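Outside the rule, 9 further listed genes that encode protein kinases were named in a fixed list, which may not be complete. Of these, 2 were left out for an excluded GO term and 7 lacked the term for protein kinase activity. In hypomorphic hearts 3 of the 9 were lower and 6 higher, beside 58.0% lower and 42.0% higher of all protein-coding genes listed. This split ran opposite to that of the 29 members. Acvrl1, the type I receptor ALK1 of endothelial cells, had 561 raw reads in control hearts and 264 in hypomorphic ones (normalized log2 difference -0.61), so that all 3 type I receptor genes listed were lower. The Src-family kinases Blk and Fgr, known from B cells and myeloid cells, were higher at 1.0 and 0.80, with 113 and 164.5 raw reads for Blk and 77.1 and 97.2 for Fgr, opposite to Jak3, Tec, Zap70 and Bmx. The ephrin receptors split, with Ephb2 higher at 0.81 (1403 and 1769 raw reads) and Epha5 lower at -0.74 (52.8 and 23.4). Pim1 (0.79), Cit (0.87) and Wnk4 (0.78) were higher and Ikbke (-0.59) lower. None of the 6 higher genes reached 1.5-fold on raw reads, the largest ratio being 1.45 for Blk. Scaling to the total of the protein-coding genes turned Fgr (-0.032), Ephb2 (-0.031), Wnk4 (-0.078) and Pim1 (-0.17) to slightly lower. Blk (0.17) and Cit (0.020) stayed above 0.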
